A study of Mus musculus with 4 samples.

Results

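Prnp, Ccnd3, Cass4, Dennd5a, Dgkh, Ptprc and Malat1 are 7 of the 32285 genes measured in CD45+ cells of mouse melanomas, and they were chosen by their measured difference between control and glucocorticoid (GC) treated tumors. Each had an adjusted p under 0.05 by limma, a linear model fitted across all genes with the tumor as the replicate, in CD8 T cells, in neutrophils and in tumor-associated macrophages (TAMs). Of 3421 genes tested in all 3 classes, 15 did so, and the other 8 were Dusp1, Fkbp5, H2-Aa, H2-Ab1, Il1rn, Klf9, Rpl28 and Ugcg. Among the 7, the largest of the 3 limma adjusted p-values was 0.0422 for Cass4 and 0.0308 for Dgkh, and the genes next outside the threshold were Rps15a at 0.0522 and Cytip at 0.0529. The differences in these 3 classes, and in monocytes, which belonged to the same comparison, are therefore given as descriptions with no test. A gap between the groups in the 3 classes goes with that choice and is no added support. All 7 genes were found in the table, and all 7 passed the filter on low values in those 3 classes. The filter asked for a mean of at least 0.2 UMIs per 10000 over control and GC tumors together. Prnp passed it in neutrophils, TAMs and monocytes only through the GC tumors, as its control means there were 0.126, 0.0807 and 0.138.

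The cells came from 20967 melanomas, a line from C57BL/6 mice with the alleles Nras+LSL-G12D, a conditional oncogene, and Tyr::CreERT2+/o, an inducible Cre driven by the melanocyte promoter of tyrosinase, grown intradermally in wild-type C57BL/6 hosts. Of 10 mice, 5 received control treatment and 5 received clobetasol propionate, a potent synthetic GC. The 5 tumors of a group were marked with hashtag antibodies, pooled and loaded into 1 droplet channel, with 17100 control cells and 3500 GC cells loaded, so treatment and channel cannot be told apart. After the filters of the study, 3803 control cells (median 7440 UMIs, unique counts of captured RNA molecules) and 305 GC cells (median 9163 UMIs) remained, with 347 to 1250 cells per control tumor and 18 to 111 per GC tumor, and the channels shared 0 cell barcodes. Classes follow the deposited cluster names, with the clusters CD8 1, CD8 2 and CD8 3 combined as CD8 T cells and Monocytes 1, 2 and 3 as monocytes. No source names the tumors of a pool beyond their hashtag, so the tumor numbers below are hashtag numbers and pair nothing across groups. Levels are the mean over cells of UMIs per 10000 UMIs of the cell. Differences are log2 (GC minus control) of these means with 0.1 added, which understates the change of low genes. In control tumors all 11 marker lists were highest in the class they were fixed for, an order across classes and not within a class. Control eosinophils had median sums of 65.5 for the neutrophil list and 14.25 for their own. The CD4 cluster had 1.60 for the CD8 list and 1.28 for Cd4. The melanoma marker list summed to at most 0.0280 UMIs per 10000 in CD8 T cells, neutrophils, TAMs and monocytes.

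Glucocorticoids bind the glucocorticoid receptor, a nuclear receptor present in nearly all leukocytes, which raises some genes through DNA response elements and lowers others, often through inflammatory transcription factors. Lymphocytes and myeloid cells share a core of responding genes but differ in much of their response. The 7 genes have unrelated functions. Prnp encodes the cellular prion protein, held at the cell surface by a lipid anchor. Ccnd3 encodes cyclin D3, which drives entry into the cell cycle and is the main D cyclin of lymphocytes. Ptprc encodes CD45, the receptor tyrosine phosphatase of all leukocytes and the antigen used here to sort the cells. Dgkh encodes diacylglycerol kinase eta, which converts the second messenger diacylglycerol to phosphatidic acid. Cass4 encodes a Cas family adhesion scaffold, Dennd5a an exchange factor for Rab GTPases of membrane traffic, and Malat1 an abundant nuclear long noncoding RNA.

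On the GRCm38 build, in the GENCODE annotation, Prnp lies at chr2:131909928-131938429 and Cass4 at chr2:172393794-172433757, both on the plus strand. Ccnd3 lies at chr17:47505051-47599691 on the plus strand. Dennd5a (chr7:109893780-109960470), Dgkh (chr14:78558750-78732776), Ptprc (chr1:138062861-138175708) and the noncoding Malat1 (chr19:5795690-5802672) lie on the minus strand. Reads in introns were counted. The gene Prn overlaps Prnp on the same strand and is not listed in the table, and the antisense Gm14455 overlaps Cass4 with 116 UMIs in all cells against 1121 for Cass4. Bysl overlaps the end of Ccnd3 on the other strand with 246 UMIs against 14751. The use of strand in counting is not given in the sources used here.

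Promoters are shown for the genes that were higher in every class and for the genes whose windows held the core of a glucocorticoid response element. RefSeq (GRCm38.p6) gave 12 promoters for the 7 genes. The 250 bases before each transcription start were searched on both strands for the response element hexamer (AGAACA or TGTTCT), the full palindrome (AGAACA, 3 further bases and TGTTCT), a GC box (GGGCGG or CCGCCC) and an AP-1 site (TGANTCA). The hexamer was in 2 of the 12, the GC box in 6, the AP-1 site in 1 and the full palindrome in 0. Among all 32851 promoters of this length, 16.1% held the hexamer, 32.7% a GC box, 6.75% an AP-1 site and 0.00913% the full palindrome. The windows are printed 5′ to 3′ on the strand of the gene, and capitals mark every match.
Prnp, chr2:131909678-131909927, plus strand, with 2 GC boxes and 1 AP-1 site: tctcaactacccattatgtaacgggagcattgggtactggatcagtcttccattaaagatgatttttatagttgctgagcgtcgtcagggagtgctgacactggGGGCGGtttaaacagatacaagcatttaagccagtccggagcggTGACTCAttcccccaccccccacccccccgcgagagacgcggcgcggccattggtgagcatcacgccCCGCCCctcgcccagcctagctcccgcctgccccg
Ccnd3, chr17:47504801-47505050, plus strand, with 2 GC boxes: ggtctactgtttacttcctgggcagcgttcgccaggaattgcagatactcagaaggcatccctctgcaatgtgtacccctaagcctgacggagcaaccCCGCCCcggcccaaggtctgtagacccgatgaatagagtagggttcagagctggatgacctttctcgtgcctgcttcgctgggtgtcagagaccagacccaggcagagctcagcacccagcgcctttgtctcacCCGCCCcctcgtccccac
Dgkh, chr14:78644452-78644701, minus strand, with 1 hexamer: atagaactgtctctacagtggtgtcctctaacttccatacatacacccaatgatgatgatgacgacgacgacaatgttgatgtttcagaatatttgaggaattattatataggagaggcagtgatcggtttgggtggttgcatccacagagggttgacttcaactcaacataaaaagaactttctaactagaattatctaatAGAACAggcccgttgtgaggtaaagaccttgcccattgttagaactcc
Dgkh, chr14:78732730-78732979, minus strand, with 3 GC boxes: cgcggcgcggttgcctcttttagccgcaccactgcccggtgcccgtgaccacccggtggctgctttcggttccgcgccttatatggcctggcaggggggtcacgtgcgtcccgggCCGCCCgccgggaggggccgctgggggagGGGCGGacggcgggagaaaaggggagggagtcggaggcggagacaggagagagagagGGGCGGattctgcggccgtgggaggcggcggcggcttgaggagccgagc
Ptprc, chr1:138175127-138175376, minus strand, with 1 hexamer: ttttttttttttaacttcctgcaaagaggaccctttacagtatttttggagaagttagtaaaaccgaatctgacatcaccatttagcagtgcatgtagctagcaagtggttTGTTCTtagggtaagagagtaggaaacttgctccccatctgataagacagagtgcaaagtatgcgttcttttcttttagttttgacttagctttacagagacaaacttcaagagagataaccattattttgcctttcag
The hexamer stood 48 bases before the start of that Dgkh transcript and 139 bases before that of Ptprc. A match is a description of the letters, and no binding was measured.

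Prnp and Ccnd3 were higher after GC in every class that had cells of both groups, 11 of 11. Malat1 and Ptprc were lower in 10 of 11. Cass4 was lower in 7, higher in 3 and at 0 in both groups in DC 1. Dennd5a and Dgkh moved in opposite directions: both were higher after GC in CD8 T cells and lower in neutrophils and TAMs. These directions compare all cells of a group pooled, and many classes held few GC cells. Some were close to level: Ccnd3 in the CD4 cluster was 8.65 in control and 8.92 in GC cells, and Malat1 in NK cells was 124 and 121. The Prnp direction rested on 1 GC UMI in Tregs, 2 in eosinophils and 4 in the CD4 cluster. The share of all genes that kept 1 direction over the 11 classes was not counted. The 95% Poisson intervals of the pooled levels cover counting error only. They did not overlap in 7 classes for Prnp and 8 for Ccnd3, all higher. For Malat1 and Ptprc they did not overlap in 9 classes each with the GC level lower. These counts include the classes that chose the genes, and the share of all genes with intervals apart was not counted. For Malat1 and Ptprc the intervals lay apart the other way in 1 class each. Ptprc in DC 1 went from 4.77 (4.43 to 5.13) to 6.46 (5.44 to 7.60). Malat1 in eosinophils went from 107.9 (104.9 to 110.9) to 211.8 (198 to 227), but 613 of the 848 GC UMIs came from GC tumor 2. The 5 GC tumors had Malat1 levels of 92.1, 232, 13.4, 0 and 133 in eosinophils, against 80.8 to 123 in control tumors. By tumor, over the 4 GC tumors with at least 3 cells, the log2 difference was -0.40 (SE 0.68).

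**Figure D1:**
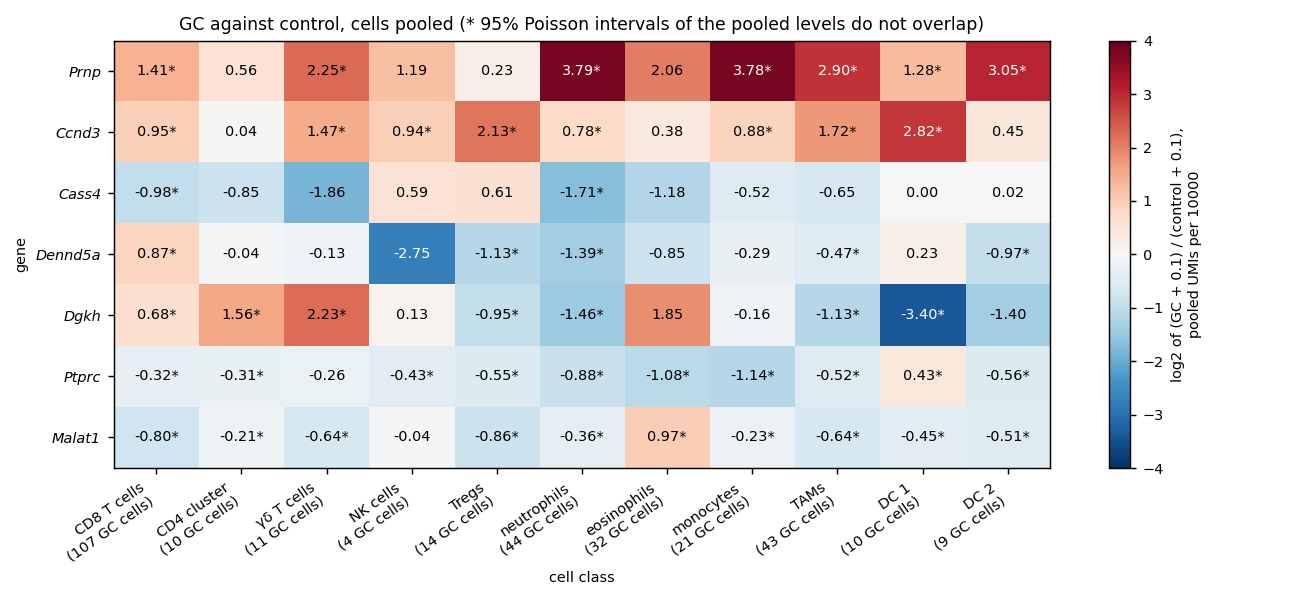
Log2 ratio of pooled UMIs per 10000 in GC against control cells (0.1 added to each) for the 7 genes (rows) in 11 cell classes (columns), with red for higher after GC, and a star where the 95% Poisson intervals of the levels did not overlap. Prnp and Ccnd3 are red across all 11 classes, while Dennd5a and Dgkh are red in CD8 T cells and blue in neutrophils and TAMs.

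Prnp showed the widest differences. In neutrophils the 5 control tumors had levels of 0, 0.136, 0.445, 0 and 0.0469, and the 2 GC tumors with at least 10 neutrophils had 3.99 and 2.80. In TAMs the control tumors had 0.0925, 0.122, 0.0826, 0.0557 and 0.0505 against 1.51 and 1.63 in 2 GC tumors. Their CD8 T cells had 0.153, 0.397, 0.241, 0.394 and 0.325 against 0.531, 1.13 and 0.880 in 3 GC tumors with at least 10 cells. No GC tumor overlapped the control tumors in any of these classes, and the gap was narrowest in CD8 T cells. The log2 differences were 4.26 (SE 0.67) in neutrophils, 3.22 (SE 0.21) in TAMs and 1.23 (SE 0.29) in CD8 T cells. In monocytes only 1 GC tumor had 10 cells, and its level was 4.44 against 0.138 ± 0.0889 (SD, n = 5) in control tumors. In that tumor the 6 neutrophil markers summed to 4.75 UMIs per 10000 in monocytes, against 1.40 to 2.90 in control tumors. Cxcr2 (log2 difference 3.94) and S100a8 (2.93) were higher there and Csf3r (-1.41) was lower. S100a9, Retnlg and Mmp9 were at 0 in GC monocytes. Over all GC monocytes, Prnp was 5.02 (95% Poisson interval 4.07 to 6.12) in the 11 cells with 3 or more neutrophil marker UMIs and 1.77 (1.14 to 2.64) in the 10 with fewer, against 0.157 and 0.186 in control monocytes.

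Because Prnp was near 0 in control cells, the share of cells with a Prnp UMI was also compared after thinning each cell of at least 1000 UMIs to 1000. In neutrophils the share went from 1.0% to 29.9% of cells (2.5% and 68.2% unthinned), and in monocytes from 1.4% to 25.4% (9.8% and 81.0% unthinned). In TAMs it was 0.85% and 12.8% (7.7% and 51.2% unthinned), and in CD8 T cells 2.6% and 8.1% (12.7% and 38.3% unthinned). Of the cells in these classes, 11 control cells and 1 GC cell were too shallow and were left out. In Tregs 0.56% of control and 0.85% of GC Tregs had a Prnp UMI after thinning (3.3% and 7.1% unthinned). The median UMIs of Tregs were 6169 in control and 8420.5 in GC cells. The Treg level after GC was 1 UMI in 14 cells, 0.0795 per 10000 (95% Poisson interval 0.00201 to 0.443), against 0.0531 (0.0309 to 0.0850) in control Tregs. A difference within that interval was not detectable at this depth. Its upper limit lay below the pooled level of GC CD8 T cells, 0.935 (0.758 to 1.14).

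Ccnd3, abundant in lymphocytes and neutrophils and low in TAMs, differed by less than Prnp. In CD8 T cells the control tumors had 9.06, 8.03, 8.46, 7.17 and 6.92 and the GC tumors 17.7, 13.6 and 16.6. The groups lay well apart, with a log2 difference of 1.00 (SE 0.12), a 2.00-fold higher level. In TAMs the control tumors had 1.11, 0.815, 1.71, 1.60 and 0.612 and the GC tumors 4.66 and 4.36, a log2 difference of 1.95 (SE 0.32). In neutrophils the control range of 5.03 to 9.21 lay below the GC values of 15.4 and 10.7. In monocytes the single GC tumor was at 3.85 against 2.63 ± 0.54 (SD, n = 5). The mix of monocyte clusters differed between the groups, with Monocytes 1 making up 311 of 449 control and 18 of 21 GC cells. Within Monocytes 1 pooled Ccnd3 was 1.56 (95% Poisson interval 1.44 to 1.70) in control and 4.54 (3.81 to 5.36) in GC cells, and in control cells of Monocytes 2 it was 5.06.

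Cass4 was expressed mainly in the granulocytes, and its level in neutrophils went from 2.29 ± 0.454 (SD, n = 5) to 1.08 and 0.135 in the 2 GC tumors. The CD8 T cells went from 0.467 ± 0.189 (SD, n = 5) to 0.129 ± 0.0172 (SD, n = 3), and in TAMs from 0.265 ± 0.047 (SD, n = 5) to 0.0803 and 0.0241. The groups did not overlap in these 3 classes, but the GC levels in CD8 T cells and TAMs rested on few UMIs, 2, 6 and 4 in the 3 tumors and 3 and 1 in the 2 tumors. The 95% Poisson intervals of the levels pooled over all cells of a group overlapped in TAMs. In monocytes Cass4 did not pass the filter on low values.

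Ptprc, measured as RNA in cells sorted for its protein, was lower after GC in the 3 classes and in monocytes. The control means were 26.7 ± 1.65 in CD8 T cells, 26.1 ± 3.78 in neutrophils and 17.0 ± 0.734 in TAMs (SD, n = 5 each). The GC tumors had 18.6, 18.9 and 22.2 in CD8 T cells, 13.8 and 17.2 in neutrophils, and 14.5 and 10.5 in TAMs. The widest gap was in monocytes, where the GC tumor was at 9.20 and the lowest control tumor at 19.3. The log2 differences ran from -0.42 (SE 0.10) in CD8 T cells to -1.32 (SE 0.21) in monocytes.

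Malat1 is among the most abundant RNAs of the table and was lower after GC by less than 1 log2 unit. The control tumors had 132, 140.0, 146, 146 and 141 in CD8 T cells, and the GC tumors had 102, 80.8 and 74.9. The log2 difference was -0.72 (SE 0.10) in CD8 T cells, -0.49 (SE 0.09) in TAMs and -0.39 (SE 0.11) in neutrophils. The share of UMIs from ribosomal protein genes moved the other way. It was 9.09% to 10.1% in control and 9.31% to 12.7% in GC CD8 T cells by tumor, 6.74% to 7.84% against 8.87% to 13.1% in TAMs, and 1.60% to 1.93% against 2.04% to 3.83% in neutrophils. With ribosomal protein genes left out of the totals, an alternative chosen after seeing the data, the log2 difference of Malat1 was -0.71 in CD8 T cells, -0.47 in TAMs and -0.37 in neutrophils.

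**Figure D2:**
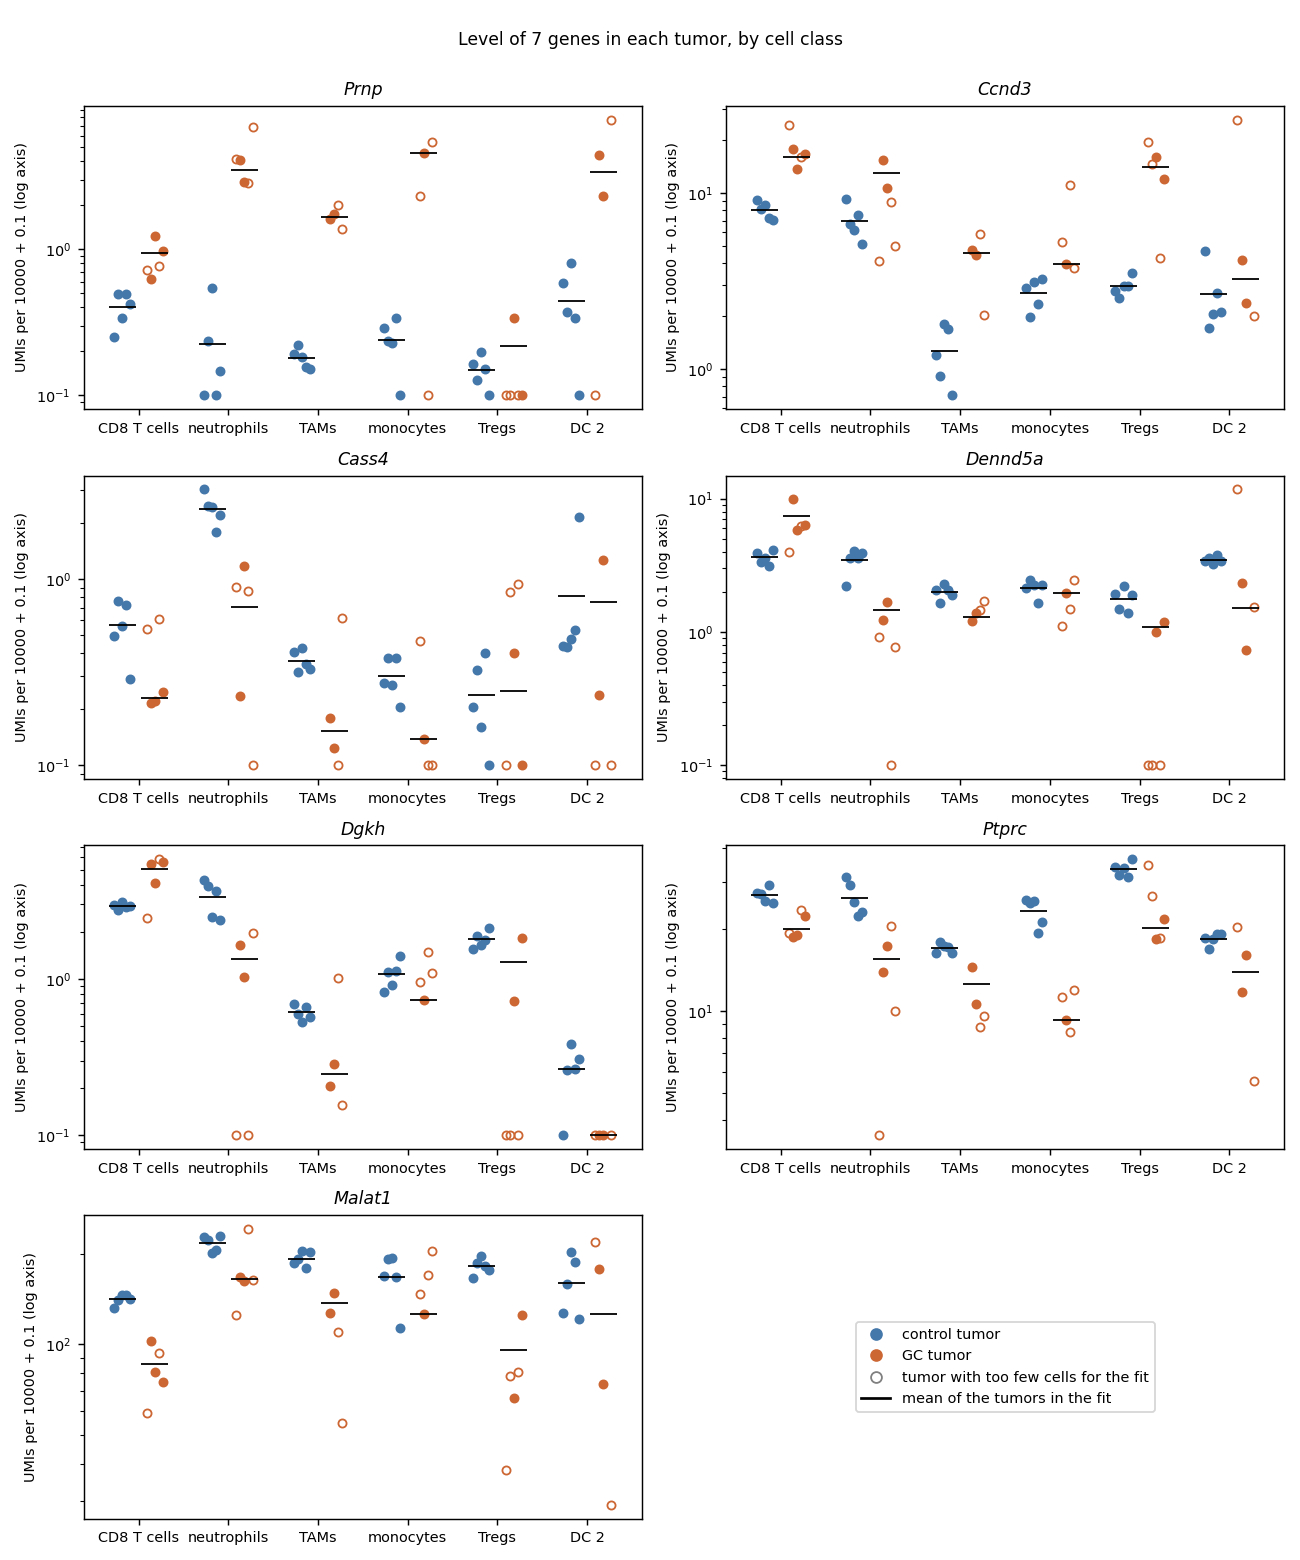
Mean UMIs per 10000 plus 0.1 (log axis) of each gene in each tumor (points) for 6 classes, with control tumors in blue, GC tumors in orange, open points for tumors with too few cells for the fit, and lines for the mean of the filled points. In CD8 T cells, neutrophils and TAMs the filled GC points lie beyond all control points for each of the 7 genes, and for Dennd5a and Dgkh they lie above them in CD8 T cells and below them in neutrophils and TAMs.

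Dennd5a and Dgkh are the 2 of the 7 genes that split the 3 classes that chose them. In CD8 T cells the control tumors had Dennd5a levels of 3.83, 3.27, 3.46, 3.01 and 4.03 and the GC tumors 9.87, 5.76 and 6.22. In neutrophils the control tumors had 2.11, 3.48, 3.97, 3.46 and 3.81 and the GC tumors 1.13 and 1.59. In TAMs the control tumors had 1.97, 1.56, 2.19, 1.95 and 1.80 and the GC tumors 1.10 and 1.29. The groups did not overlap in any of the 3 classes. The log2 differences of Dennd5a were 1.00 (SE 0.18), -1.24 (SE 0.33) and -0.62 (SE 0.15) in that order.

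Dgkh followed the same split. Its control levels in CD8 T cells were tight, at 2.89, 2.67, 3.00, 2.80 and 2.81, and the GC tumors had 5.33, 3.99 and 5.49. The neutrophils of the control tumors had 4.17, 3.85, 2.38, 3.57 and 2.29 and those of the GC tumors 1.54 and 0.929. The TAMs of the control tumors had 0.430 to 0.589 and those of the GC tumors 0.107 and 0.186. The groups again lay apart in each class. The log2 differences of Dgkh were 0.77 (SE 0.13) in CD8 T cells, -1.33 (SE 0.35) in neutrophils and -1.32 (SE 0.20) in TAMs.

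Within the CD8 T cells, both genes were higher after GC in each of the clusters CD8 1, CD8 2 and CD8 3 when cells were pooled. Dennd5a went from 3.58 (95% Poisson interval 3.38 to 3.79) to 4.81 (4.21 to 5.47) in CD8 1 and from 3.43 (3.18 to 3.68) to 7.60 (6.85 to 8.41) in CD8 2. The difference in CD8 1 alone was 0.40 on the log2 scale, against 1.00 in all CD8 T cells, and the pooled gap was wider in CD8 2. Dgkh went from 3.15 (2.96 to 3.34) to 5.08 (4.46 to 5.75) in CD8 1 and from 2.24 (2.05 to 2.45) to 3.38 (2.89 to 3.94) in CD8 2. CD8 3 held 7 GC cells, with Dgkh at 9.26 (7.05 to 11.9) against 2.84 (2.45 to 3.28) in control cells. CD8 4 held 30 control cells and no GC cell.

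In the other classes, lymphoid cells did not all follow CD8 T cells. Dgkh was higher after GC in the CD4 cluster (1.17 to 3.64, on 38 UMIs in 10 GC cells) and in γδ T cells (0.362 to 2.07, on 16 UMIs in 11 GC cells), but all 16 of these γδ UMIs came from GC tumor 3, and GC tumors 2, 4 and 5 were at 0. It was lower in Tregs (1.63 to 0.795, on 10 UMIs in 14 GC cells). In DC 1 it was 0.956 in 97 control cells and 0 (95% Poisson interval 0 to 0.165) in 10 GC cells. There 3 UMIs would have given 0.134, a 7.11-fold lower level in pooled cells. By tumor Dgkh was 0 in each GC tumor, with 1 to 3 DC 1 cells per tumor, against 0.588 to 1.10 in control tumors. In DC 2 it was 0.163 in control cells and 0 in 9 GC cells, where 3 UMIs would have given 0.169, so a difference was not detectable at this depth. Dennd5a was lower in Tregs (1.69 to 0.715) and in DC 2 (3.30 to 1.64), and in DC 1, where it was highest, it was 6.76 (6.35 to 7.18) in control and 7.93 (6.81 to 9.19) in GC cells. Those DC 1 intervals overlapped. In monocytes both genes were within the spread or close to it: the GC tumor had 1.87 for Dennd5a, inside the control range of 1.56 to 2.37, and 0.633 for Dgkh against a control range of 0.722 to 1.30.

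**Figure D3:**
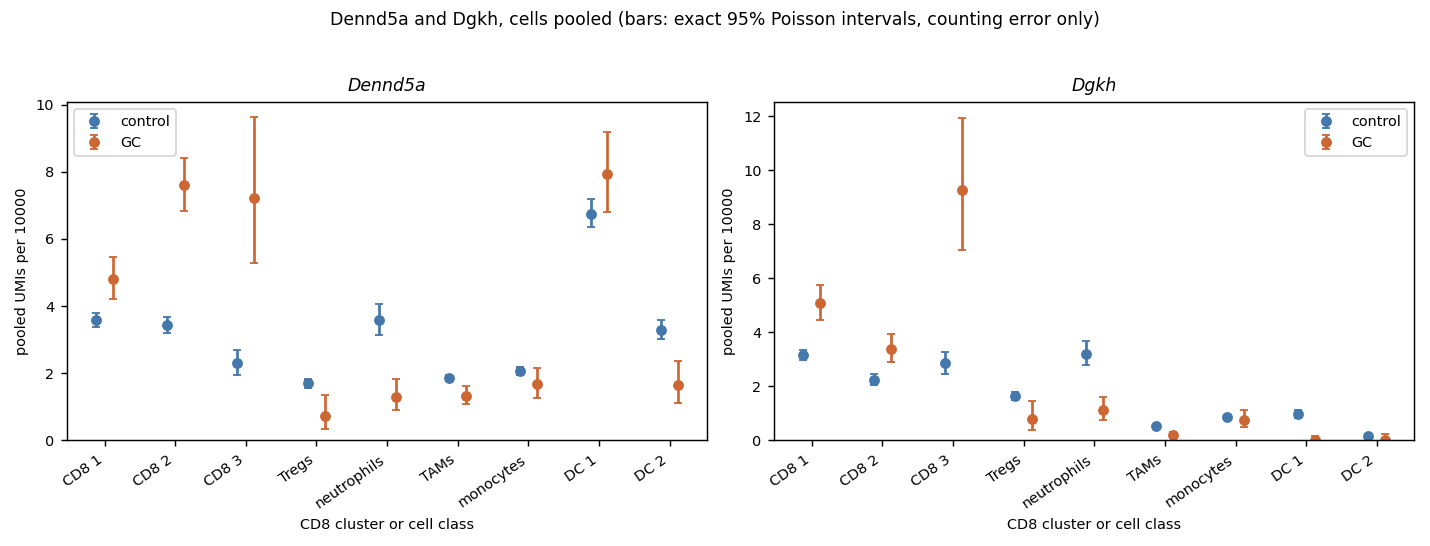
Pooled UMIs per 10000 of Dennd5a (left) and Dgkh (right) in control (blue) and GC (orange) cells of the CD8 clusters and of 6 other classes, with exact 95% Poisson intervals as bars. In CD8 1, CD8 2 and CD8 3 the GC points lie above the control points for both genes, and in Tregs, neutrophils and TAMs they lie below.

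Some GC tumors had fewer than 10 cells of a class and so had no part in the choice of the genes. They are set here beside the same control tumors, which did have a part, so no test is given. Prnp was above all 5 control tumors in each such GC tumor in CD8 T cells (2 of 2), neutrophils (3 of 3) and TAMs (2 of 2), with pooled levels of 0.709, 5.69 and 1.55. Ptprc was below all control tumors in the same 2, 3 and 2 tumors. Malat1 was below them in 2 of 2, 2 of 3 and 2 of 2. The share of all genes that lay beyond the control tumors in GC tumors with so few cells was not counted. Dennd5a and Dgkh were both below all control tumors in the 3 GC tumors with few neutrophils, which together held 11 neutrophils.

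Other values did not repeat so evenly. In CD8 T cells of the 2 GC tumors with 7 and 9 cells, Dennd5a was 3.91 and 6.19 and Dgkh 2.37 and 5.73, so 1 of 2 lay above all control tumors for each gene, and Dgkh in the other lay below them. Cass4 in those tumors was 0.442 and 0.513, inside the control range. In neutrophils Ccnd3 was 4.05, 8.79 and 4.91, with 0 of 3 above all control tumors and a pooled level of 4.87 (95% Poisson interval 3.29 to 6.96) under the control mean of 6.89. In TAMs Ccnd3 was 5.78 and 1.93, both above all control tumors, and Dgkh was 0.911 and 0.0552, 1 on each side of them. Cass4 in TAMs was 0 and 0.521, also on both sides, with a pooled level of 0.322 (95% Poisson interval 0.118 to 0.700) against a control mean of 0.265. The 2 GC tumors held 3 and 7 TAMs.

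The classes that had no part in the choice of the genes allow a test, and eosinophils (5 control and 4 GC tumors), Tregs (5 and 2) and DC 2 (5 and 2) had enough cells, at 3 or more per tumor. In Tregs limma called 3 of the 5 members that passed the filter on low values: Ccnd3 higher, Ptprc and Malat1 lower. The background in Tregs was 5.29% of 6031 genes called higher and 11.3% called lower by limma, and 2.79% called by edgeR in either direction. Ccnd3 went from 2.70, 2.44, 2.89, 2.88 and 3.43 in control Tregs to 15.9 and 11.9 in the 2 GC tumors, each with 5 Tregs. The other 3 GC tumors, with 4 Tregs in all, had 19.6, 14.6 and 4.2. The GC tumors lay far above the control tumors, with a log2 difference of 2.24 (SE 0.19, limma adjusted p = 0.00091, edgeR adjusted p = 2.7e-05).

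Ptprc in Tregs went from 33.3 ± 1.99 (SD, n = 5) to 20.1 ± 2.43 (SD, n = 2), a log2 difference of -0.73 (SE 0.13, limma adjusted p = 0.0082, edgeR adjusted p = 0.059). Malat1 went from 182 ± 11.2 to 95.6 ± 41.9, a log2 difference of -0.99 (SE 0.21, limma adjusted p = 0.017, edgeR adjusted p = 0.066). The other 3 GC tumors, with 1 or 2 Tregs each, had Ptprc levels of 34.3, 26.5 and 18.5, of which 1 lay inside the control range. Neither gene was called by edgeR, and the Malat1 call was also lost by limma without control tumor 3, at -0.97 on the log2 scale (limma adjusted p = 0.051). Without GC tumor 3 the Malat1 difference was -0.53, and without GC tumor 5 it was -1.46. Dennd5a (log2 difference -0.69, SE 0.25, limma adjusted p = 0.095) and Dgkh (-0.64, SE 0.34, limma adjusted p = 0.24) had values on the side of neutrophils and TAMs without passing the test. The share of ribosomal protein UMIs in Tregs was 3.99% to 4.56% in control and 6.71% to 10.8% in GC tumors.

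In DC 2 limma called Prnp higher and Dennd5a lower, 2 of the 6 members that passed the filter, against a background of 1.03% called higher and 6.28% lower of 5829 genes, and 0.772% called by edgeR. Prnp was 0.484, 0.270, 0.707, 0.240 and 0 in control tumors and 4.33 and 2.21 in the GC tumors, which held 3 DC 2 cells each. The 2 GC tumors with fewer had 0 and 7.62. The groups did not overlap, and the log2 difference was 3.16 (SE 0.68, limma adjusted p = 0.023, edgeR adjusted p = 0.038). The limma call was lost without control tumor 2 (log2 difference 3.17, limma adjusted p = 0.051) or 4 (3.14, limma adjusted p = 0.062). Dennd5a was 3.38 ± 0.22 (SD, n = 5) in control DC 2 and 2.21 and 0.629 in the GC tumors (log2 difference -1.42, SE 0.39, limma adjusted p = 0.049, edgeR adjusted p = 0.22), and its call was lost without any 1 of the 5 control tumors or without GC tumor 3, where the difference was -0.59, while without GC tumor 2 it was -2.25. In the 2 GC tumors with 1 and 2 DC 2 cells, Dennd5a was 11.6 and 1.43, on both sides of the control tumors.

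In eosinophils, with a median of 873.5 UMIs in control and 721 in GC cells, limma called 0 of the 6 members that passed the filter, against a background of 0.263% called higher and 8.37% lower of 5317 genes. At an unadjusted p under 0.05, limma called 0 of the 6. Only Ptprc passed by edgeR there, at a log2 difference of -1.88 (edgeR adjusted p = 0.0018), where 9.99% of all genes did. The median log2 difference of all genes in eosinophils was -0.88, so the Ptprc difference of -0.93 by limma was -0.06 relative to it.

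An exact two-sided permutation test over tumors was run for the 7 genes in the 3 classes, 21 tests. With 5 against 2 tumors the smallest p it allows is 0.0476, which Ccnd3, Dennd5a, Ptprc and Malat1 reached in Tregs and Prnp, Dennd5a and Ptprc in DC 2 by this exact test. After adjustment over the 21 tests each of these was 0.143, and none passed the threshold. With so high a smallest p, the Treg and DC 2 tests could hardly pass after adjustment, so their failure decides nothing. In eosinophils the smallest exact p was 0.143, for Ptprc, where 0.00794 was possible.

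For the classes that chose the genes, the background of called genes is given only as a description of the comparison. In CD8 T cells limma called 2.27% of 6158 genes higher and 2.74% lower, in neutrophils 2.09% and 2.74% of 4411, and in TAMs 6.86% and 14.3% of 5988. In monocytes, where the fit assumed that the 1 GC tumor varied like the controls, it called 5.70% higher and 18.2% lower of 5771 genes, Prnp among the first and Ptprc among the second. The median log2 difference of all genes was -0.09 in CD8 T cells, 0.03 in neutrophils, -0.12 in TAMs, -0.18 in monocytes, -0.23 in Tregs and -0.29 in DC 2. Relative to it, Ptprc in TAMs was lower by -0.34 rather than -0.46 and Malat1 by -0.37 rather than -0.49. With median-of-ratios scaling, which sets that median near 0, TAM calls split into 602 higher and 609 lower instead of 411 and 859, and the calls for Ptprc in TAMs and CD8 T cells and for Ccnd3 in neutrophils fell outside the threshold.

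Other measures moved with treatment too. GC cells were deeper, with median UMIs of 9741 against 6826 in CD8 T cells, 5881.5 against 4220.5 in neutrophils and 17855 against 12883 in TAMs. Cells of like depth were taken at 0.5 to 1.5 times the control median, with the minimum also lowered to 5 cells per tumor. Within these limits GC cells stayed deeper. Their median UMIs were 8216 against 6765 in CD8 T cells, 4815 against 4230 in neutrophils and 15977 against 12760 in TAMs. The log2 differences of Prnp in these cells were 4.64 in neutrophils, 3.14 in TAMs and 1.30 in CD8 T cells. Those of Dennd5a were 1.01 in CD8 T cells, -1.87 in neutrophils and -0.32 in TAMs. Markers of other cells also shifted. The 6 neutrophil markers summed to 1.01 to 1.35 UMIs per 10000 in control TAMs and 1.93 to 3.63 in GC TAMs. S100a8 (log2 difference 2.57) and Cxcr2 (2.68) were higher, and Csf3r was near level (0.03). S100a9 was at 0.0130 and Retnlg and Mmp9 were at 0 in GC TAMs.

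Prnp in TAMs was highest in the cells that carried those markers. In GC TAMs with 3 or more neutrophil marker UMIs it was 1.77 (95% Poisson interval 1.41 to 2.19, 26 cells), and in those with fewer it was 0.594 (0.346 to 0.952, 17 cells). Both were above the control TAMs, at 0.0906 (0.0528 to 0.145) and 0.0912 (0.0708 to 0.116). With only the TAMs under 3 such UMIs in the fit, and the minimum also lowered to 5 cells per tumor, the log2 differences were 2.39 for Prnp and 1.38 for Ccnd3, -0.66 for Dennd5a and -0.96 for Dgkh. In that fit Ptprc was -0.23. The TAM marker list in CD8 T cells went down, from 0.468 to 0.994 in control tumors to 0.0943 to 0.266 in GC tumors, and in neutrophils from 1.80 to 2.70 to 0.689 and 1.41. The part of these markers in the differences of the other genes was not tested.

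The level of the 7 genes across the deposited clusters was described in control tumors with at least 5 cells of a cluster. These clusters were built from the same expression values, so the order is a description. Prnp was highest in DC 1, at 1.74 ± 1.09 (SD, n = 5), and every pair of neighbours in its order overlapped in range. Dennd5a was also highest in DC 1, at 6.97 ± 0.71, with no overlap with the next cluster, CD8 2, at 3.71 ± 0.854, and lowest in NK cells at 0.620 ± 0.234 (SD, n = 5 each). Ptprc went the other way, highest in NK cells at 46.7 ± 7.77 and lowest in DC 1 at 4.54 ± 0.907, below the range of eosinophils at 11.1 ± 1.9. Ccnd3 was likewise lowest in DC 1, at 0.342 ± 0.139, without overlap with TAMs at 1.17 ± 0.48, and highest in CD8 3, at 10.0 ± 3.75, whose range overlapped that of NK cells.

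Cass4 marked the granulocytes, at 2.43 ± 0.527 in eosinophils and 2.29 ± 0.454 in neutrophils, followed by DC 2 at 0.710 ± 0.761, whose range overlapped theirs through 1 tumor, and it was 0 in DC 1 (SD, n = 5 each). Among 97 control DC 1 cells no Cass4 UMI was seen. Dgkh was highest in neutrophils (3.25 ± 0.866) and CD8 1 (3.15 ± 0.0526), which overlapped, and lowest in eosinophils (0.0809 ± 0.129). Malat1 ranged from 274 ± 70.3 in DC 1 to 96.01 ± 10.1 in Monocytes 2. Most neighbours overlapped: across the 7 genes, 5 of the 98 pairs of neighbours in the order did not.

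**Figure D4:**
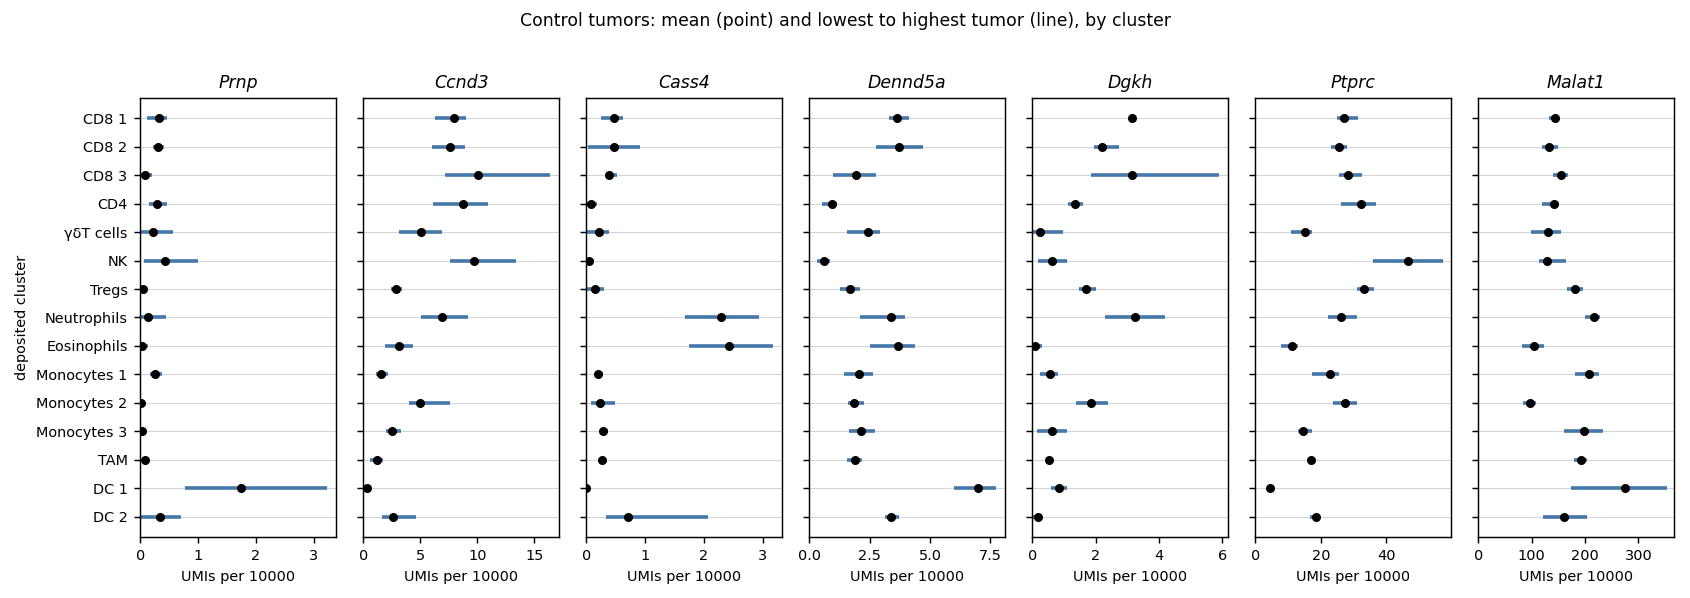
Mean UMIs per 10000 (points) and lowest to highest control tumor (lines) of each gene in 15 deposited clusters. DC 1 is the highest cluster for Prnp, Dennd5a and Malat1 and the lowest for Ccnd3, Cass4 and Ptprc.

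The genes most like each member were sought over 26 combinations of cluster and group with at least 10 cells, among 6539 genes, by Pearson's r of log2 levels, as a description. The points share libraries and the GC points share 1 channel. For Prnp they were Rnf169 (0.77), St7 (0.67) and Ubb (0.65), and for Ccnd3 they included Zfp36l2 (0.88) and Rnf125 (0.76). For Cass4 they were Cap1 (0.85), Junb (0.83) and Jund (0.80), and for Ptprc Mef2d (0.82), Slc9a9 (0.82) and Hip1 (0.81). Dennd5a was nearest to Vps37c and Bcl2a1d (0.72 each), Dgkh to Rnf19a (0.76) and Malat1 to Cd274 (0.80). Dennd5a and Dgkh moved the same way in CD8 T cells, neutrophils and TAMs, but not in every class. Their r with each other was -0.07, and Ccnd3 and Malat1 had the lowest r between members, at -0.71.

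Related genes were counted by the lists of each member's family and partners. Among all genes, limma called 2.27% higher and 2.74% lower in CD8 T cells and 2.09% and 2.74% in neutrophils. In TAMs it called 6.86% higher and 14.3% lower. The monocyte fit rested on 1 GC tumor. The list counts were not tested against these shares. Of the other D cyclins, their kinases and inhibitors, 0 of 8 tested in CD8 T cells and 0 of 6 in neutrophils passed the limma threshold. In TAMs 1 of 7 did, Rb1, the retinoblastoma protein that cyclin D kinases inactivate, from 2.67 to 1.30 UMIs per 10000 (SE of the log2 difference 0.16). In monocytes Cdk6, a partner kinase of D cyclins, was higher (log2 difference 1.36, SE 0.26) and the kinase inhibitor Cdkn1b lower (-1.12, SE 0.22). The median log2 difference of the list in CD8 T cells was -0.23 against -0.09 for all genes, so the cyclin list as a whole did not share the direction of Ccnd3.

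Among the other DENN exchange factors and their Rabs, CD8 T cells had 2 of 9 higher and 1 lower. Dennd4c (log2 difference 0.65, SE 0.14) and Dennd4a (0.40, SE 0.09) were higher and Dennd1c (-1.28, SE 0.23) lower. In TAMs 1 of 9 was higher, Dennd4c (0.87, SE 0.23), and 4 were lower, led by Madd (-1.27, SE 0.24) and Dennd6a (-0.97, SE 0.19), and in neutrophils 0 of 8 passed. Dennd4c, unlike Dennd5a, was thus higher in both CD8 T cells and TAMs. In monocytes 1 of 9 was higher and 3 lower.

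Of the other diacylglycerol kinases and effectors, 0 of 9 passed in CD8 T cells, and 1 of 10 in neutrophils, 2 of 9 in TAMs and 2 of 10 in monocytes were lower. These were the protein kinases C Prkch in neutrophils (log2 difference -2.21, SE 0.61) and Prkcd in TAMs (-1.13, SE 0.14) and monocytes (-1.46, SE 0.29), with Rasgrp1, a Ras activator that binds diacylglycerol, lower in TAMs (-0.70, SE 0.22) and Prkch lower in monocytes (-1.21, SE 0.25). The kinase Dgkz was higher in monocytes (0.86, SE 0.27). Of the CD45 substrates and partners, 0 of 8 passed in CD8 T cells and 0 of 9 in TAMs. In neutrophils Fgr was lower (-1.10, SE 0.27), and in monocytes the Src family kinases Fyn (-1.55, SE 0.31) and Fgr (-0.82, SE 0.25) were lower.

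The Cas scaffold list had 0 calls among 5 tested genes in CD8 T cells, 5 in neutrophils, 5 in TAMs and 4 in monocytes. Among the other nuclear and long noncoding RNAs, Neat1, which like Malat1 stays in the nucleus, was lower in CD8 T cells (2.71 to 1.58 UMIs per 10000, log2 difference -0.75, SE 0.13). Gas5, which is spliced and largely cytoplasmic, was higher there (0.60, SE 0.14) and in TAMs (0.53, SE 0.16). In the prion protein list Adam10, a protease that sheds the prion protein, was lower in CD8 T cells (-0.80, SE 0.19), 1 of 4 tested, and Adam8 was higher in TAMs (0.67, SE 0.16), 1 of 5. The glucocorticoid response list, a check of the treatment, was higher in 4 of 8 tested genes in CD8 T cells, 5 of 9 in neutrophils, 7 of 10 in TAMs and 7 of 10 in monocytes, with 0 lower. Tsc22d3, which encodes the GC-induced leucine zipper protein, led it in CD8 T cells, with 1.51 in control and 4.66 UMIs per 10000 in GC tumors.

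**Figure D5:**
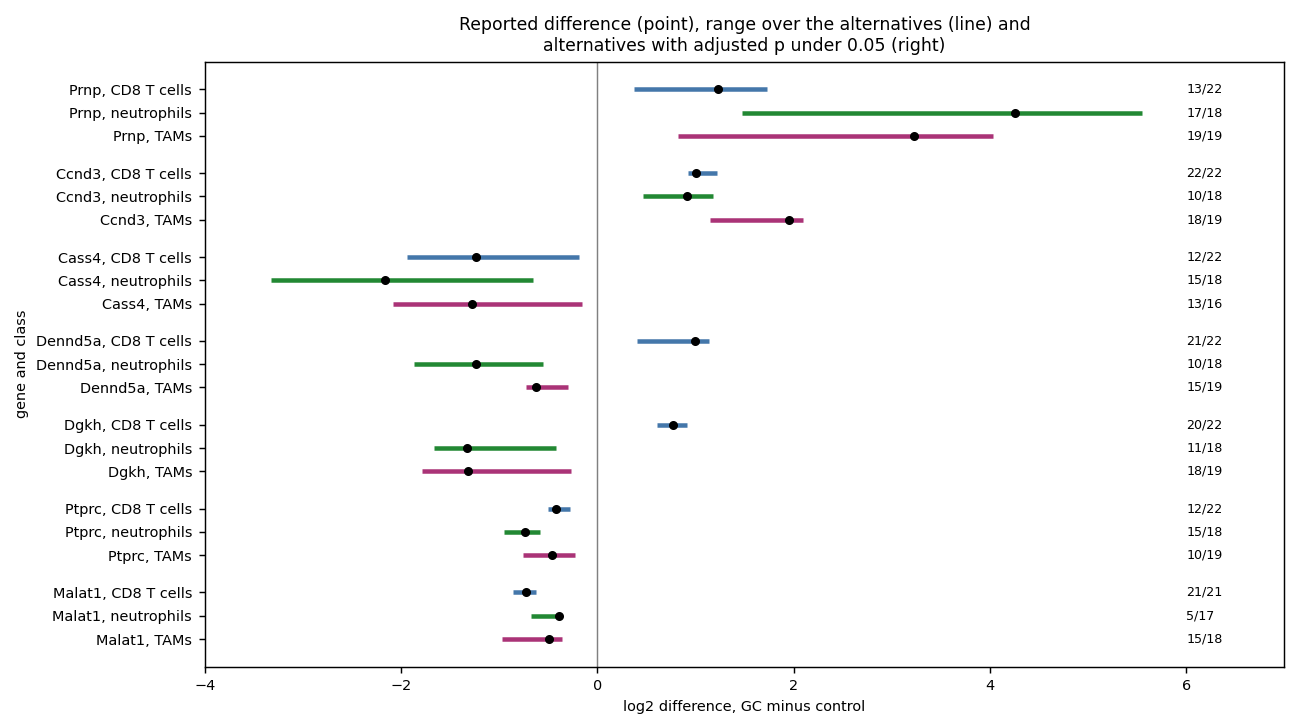
Log2 difference (GC minus control) of each gene in 3 classes as reported (points), its range over the alternatives (lines) and the number of alternatives with an adjusted p under 0.05 (right). No range crosses 0, and the short ends of the ranges for the low genes come from the alternative that averages the deposited natural log values. The genes were chosen on the reported differences, and the alternatives reuse the same tumors. The fewest calls are for Malat1 in neutrophils, 5 of 17.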

How the data were processed

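Live CD45+ cells of 5 control and 5 GC-treated tumors were profiled in 2 droplet channels. The authors counted reads with Cell Ranger 7.1.0 on mm10, introns included, assigned hashtags and kept singlets in Seurat 5.0.3, removed outlying cells, and named clusters after integrating the channels. The deposited expression values are the natural log of 1 plus UMIs per 10000, and the metadata hold the authors' UMI count, mitochondrial percent, hashtag and cluster of each cell. Doublets were treated by keeping singlets by hashtag, and pairs within a tumor would remain.

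Values were returned to UMIs, which came out whole (within 0.01) for 100% of the 10330441 values above 0, and their sums matched the deposited count in 4108 of 4108 cells. The mean of UMIs per 10000 was taken per tumor and class over tumors with at least 10 cells (3 in eosinophils, Tregs and DC 2). Genes with a mean of at least 0.2 were fitted with limma 3.58.1 (R 4.3.3) on log2(mean + 0.1), with Benjamini-Hochberg adjustment and a threshold of 0.05. Since the table holds log values, edgeR 4.0.16 and DESeq2 1.42.0 on summed recovered UMIs were alternatives, besides other pseudocounts, filters, scalings and leaving out each tumor. Exact permutation tests used scipy 1.17.1, and Poisson intervals cover counting error only. The scripts were tested on simulated data.

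The members and gene lists were chosen with earlier results of these data known. All members were named, with the list genes past the threshold (at most the 4 with the largest change per class and list) and the 3 genes most correlated with each member. Some results under these rules are not reported here. The genes next to the threshold and the 8 other genes called in all 3 classes were named after their values were seen.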

Additional observations from a re-analysis of the deposited data

Results flagged for a closer look

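In 5 of 56 gene, class and group combinations with 4 to 10 tumors, 1 tumor stood far from the rest by Dixon's criterion at the 95% level, and chance alone gives about 5 in 100. Dennd5a in neutrophils was lowest in control tumor 1, at 2.11 UMIs per 10000, against 3.46 to 3.97 in the other control tumors. Cass4 in DC 2 was highest in control tumor 5, at 2.07. Prnp in eosinophils was above 0 only in control tumor 3 (0.137) and GC tumor 2 (0.226), and Dgkh in eosinophils was 5.22 in GC tumor 1 and 0 in the other GC tumors. The eosinophil values rest on cells with a median below 1000 UMIs.

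The log2 difference of Dennd5a in CD8 T cells exceeded that in neutrophils by 2.23 and that in TAMs by 1.62. For Dgkh these gaps were 2.10 and 2.09. All GC tumors used in the comparison lay above the control tumors in CD8 T cells and below them in neutrophils and TAMs. The gaps were not tested, because the genes were chosen on the differences that form them.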

How the results depend on the processing

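All 28 of the 28 called differences of the 7 genes, counted over CD8 T cells, neutrophils, TAMs, monocytes, Tregs and DC 2, kept their direction under every alternative that was run, and 6 were called under every one. The calls in CD8 T cells, neutrophils and TAMs chose the genes, and the alternatives reused the same tumors. A kept direction is therefore no independent support, and it was not counted for other called genes. With 7 genes called in CD8 T cells, 4 were called with no filter on low values and 4 in cells of like depth with at least 5 cells per tumor (5 with that minimum alone), and 4 to 7 when 1 tumor was left out. In neutrophils 7 became 3 by DESeq2 and 4 with at least 5 cells per tumor, and 2 to 4 with 1 tumor left out. In TAMs 7 became 4 by edgeR, 3 by DESeq2 and 3 in cells of like depth with at least 5 cells per tumor (5 with that minimum alone), and 5 to 7 with 1 tumor left out. In monocytes 2 became 2 to 3. Over eosinophils, Tregs and DC 2 together, 5 became 3 with a pseudocount of 0.02, 3 with totals without Malat1, where Malat1 itself is not tested, and 3 by edgeR, and 3 to 7 with 1 tumor left out. The causes were not tested.

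In CD8 T cells the Prnp call was lost without any tumor but GC tumor 2, Cass4 without control tumor 1, 2, 3 or 4 or GC tumor 3 or 5, and Ptprc without control tumor 1, 2, 3 or 4. In neutrophils the Malat1 call was lost without any 1 tumor, Dennd5a without any but control tumor 1, Ccnd3 without control tumor 2, 3, 4 or 5 or GC tumor 2, Dgkh without control tumor 1, 2 or 4 or GC tumor 3, Ptprc without control tumor 1 or 2 or GC tumor 2, and Cass4 without GC tumor 2. In TAMs Ccnd3 was lost without GC tumor 2 and Ptprc without control tumor 2 or 4 or GC tumor 3. In Tregs, the log2 differences without GC tumor 5 were -0.81 for Dennd5a and -1.31 for Dgkh. Without GC tumor 3 they were -0.57 and 0.04. Where 1 GC tumor was left, it was assumed to vary like the controls.

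The number of genes called moved by over 1.5 times between tools in monocytes (1379 by limma, 279 by edgeR, 310 by DESeq2), Tregs (999, 168 and 366), DC 2 (426, 45 and 100), TAMs (1270, 670 and 735) and eosinophils (459, 531 and 180). With median-of-ratios scaling the higher and lower calls were 177 and 119 instead of 140 and 169 in CD8 T cells, 547 and 896 instead of 329 and 1050 in monocytes, and 78 and 266 instead of 60 and 366 in DC 2. Under it the uncalled Dennd5a difference in monocytes changed from -0.12 to 0.05. No paired analysis was possible because the hashtag numbers name tumors within a channel and pair none across groups. Only 1 to 4 GC tumors per class held enough cells, treatment equals channel, and low genes rest on few UMIs, which limits all values above.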
